A study of Mus musculus and Homo sapiens with 23 samples.

Results

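The 9 genes described here encode receptors that guide leukocytes along chemical gradients: the chemokine receptors Ccr1, Ccr2, Ccr7, Cxcr4 and Cx3cr1, the atypical chemokine receptor Ccrl2, the anaphylatoxin receptors C5ar1 and C3ar1, and the formyl peptide receptor Fpr2. They were chosen by name, and all 9 were found among the 21591 genes of the RNA tables. Fpr2 is neither a chemokine nor an anaphylatoxin receptor in the strict sense. It is a chemoattractant receptor of the same structural class.

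RNA was measured in BV2, an immortalised mouse microglial line. One group was a single library of unstimulated BV2 cells and the other a single library of BV2 cells stimulated with lipopolysaccharide (LPS), a component of the Gram-negative bacterial envelope, for 3 h. No strain or age of origin is stated here for the line, and the labels give no genetic change in these 2 RNA samples. The other 21 of the 23 samples in the series are chromatin or input samples and were not analysed here. The series asks how the histone mark H2BK20ac follows the active state of cells, here the state before and after LPS.

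Chemokine, anaphylatoxin and formyl peptide receptors span the membrane in a bundle of helices and signal mainly through inhibitory G proteins, which release G beta-gamma subunits that activate phosphoinositide 3-kinase gamma and phospholipase C beta. Signalling is ended by G protein-coupled receptor kinases, arrestins and regulators of G protein signalling. In the brain, Cx3cr1 is the receptor through which microglia sense neuronal fractalkine, Ccr2 marks monocytes that enter from the blood, and C5ar1 and C3ar1 sense complement cleavage fragments. Ccrl2 binds the chemoattractant chemerin and presents it to other cells, and it lacks the usual chemotactic signalling of its relatives.

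Values are FPKM, in which fragment numbers are divided by transcript length and by the size of the library, so levels may be compared between genes. The interval after a value is the 95% interval deposited with it. It covers counting and fragment assignment within that library and not the spread between cultures. For a gene of more than 1 row, the widths of the row intervals were combined as if the rows were independent. With 1 library per group there is no replicate check, and every difference is one between these 2 libraries. A gene was counted if it reached an FPKM of 1 in either library, which 10035 genes did. It was called higher or lower when log2(FPKM + 1) differed by at least 1 between the LPS and the unstimulated library, and this difference is called the change. Fragment numbers given below are those implied by the width of the deposited intervals. The implied fragments of counted genes summed to 13734000 without LPS and 16873000 with it. These sums are not sequencing depths. Estimated from rows of few fragments, the library size by which FPKM divides was 1.05 times as large with LPS.

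Marker genes were those of a myeloid line. Of 13 measured myeloid and microglial markers 12 were counted, with Tyrobp, an immune receptor adaptor, at 4128 FPKM unstimulated and 3064 after LPS. Markers of resting brain microglia were low or absent. Tmem119 stood at 2.16 and 0.601 FPKM, P2ry12 at 1.19 and 0.223, and Sall1 at 0 in both libraries. Counted markers numbered 0 of 6 for neurons, 0 of 5 for astrocytes and 0 of 4 for oligodendrocytes. For monocytes 1 of 5 was counted, Chil3 at 10.6 and 5.55 FPKM, which made up most of the summed FPKM of 10.8 and 5.77. Ly6c2 was at 0 and 0.0726 FPKM. For neutrophils 3 of 7 were counted, S100a8, Cxcr2 and Csf3r, with sums of 10.8 and 9.72 and S100a9 at 0 in both libraries. Of 7 dendritic cell markers 4 were counted, with sums of 52.7 and 44.2. Most of this came from Itgax (23.8 and 30.4 FPKM) and Batf3 (27.9 and 11.1 FPKM), and Flt3 was at 0.0264 and 0 FPKM. One of 7 lymphocyte markers was counted, the kinase gene Lck (1.53 and 8.09 FPKM), with sums of 1.57 and 8.17 and Cd3e at 0 in both libraries. Of 4 endothelial markers 1 was counted, Kdr at 5.45 and 4.79 FPKM, with sums of 5.49 and 4.84.

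After 3 h of LPS, the receptor transcripts of BV2 cells went in opposite directions. Ccrl2 rose 157-fold and became the most abundant of the 9. C5ar1 rose 3.08-fold, and Cxcr4 fell to an FPKM 14.9-fold lower than in unstimulated cells. C3ar1 stayed within the size rule at a high level, and Ccr1 was lower without passing it. The remaining 4, Ccr2, Ccr7, Cx3cr1 and Fpr2, did not reach an FPKM of 1 in either library. In a bulk library, fewer cells with a transcript and less of it per cell cannot be told apart.

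**Figure D1:**
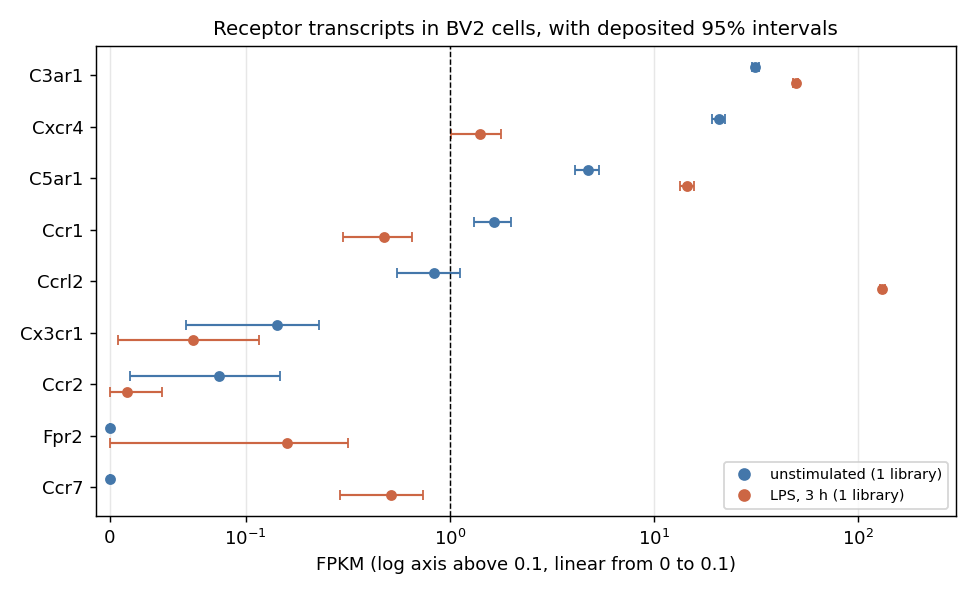
FPKM of the 9 receptor genes (horizontal axis, logarithmic above 0.1 and linear from 0 to 0.1) in the unstimulated library (blue) and the LPS library (orange); bars are the deposited 95% intervals and the dashed line is an FPKM of 1. Ccrl2 moves from 0.836 to 131 and Cxcr4 moves the other way from 20.8 to 1.40. The 4 genes at the bottom stay below 1 in both libraries. For C5ar1 each bar combines the intervals of 2 rows.

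Of the 5 counted receptor genes, 2 were called higher and 1 lower. Ccrl2, at 0.836 FPKM before LPS, was counted only through its LPS value, so the filter has a part in this count. Among all 10035 counted genes, 8.54% were called higher and 12.4% lower. Of all calls 40.7% were thus higher, a share that was 24.8% after rescaling to TPM, 61.3% when the median change was set to 0 and 53.0% after quantile normalisation. Ccrl2, C5ar1 and Cxcr4 kept their calls under each of these 3 scalings. The deposited intervals were separate for all 5, with LPS higher for 3 and lower for 2, against 25.1% and 48.4% of all counted genes in these directions. Separate intervals were thus common at this depth and do not set the receptors apart. The median change of the 5 was 0.64 and that of all counted genes -0.24, with 5 values too few to describe a family. Of the 5, Ccrl2 and Cxcr4, stood far out in the distribution of all genes. Ccrl2 had the 24th largest rise and Cxcr4 the 12th largest fall of the 10035 genes.

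**Figure D2:**
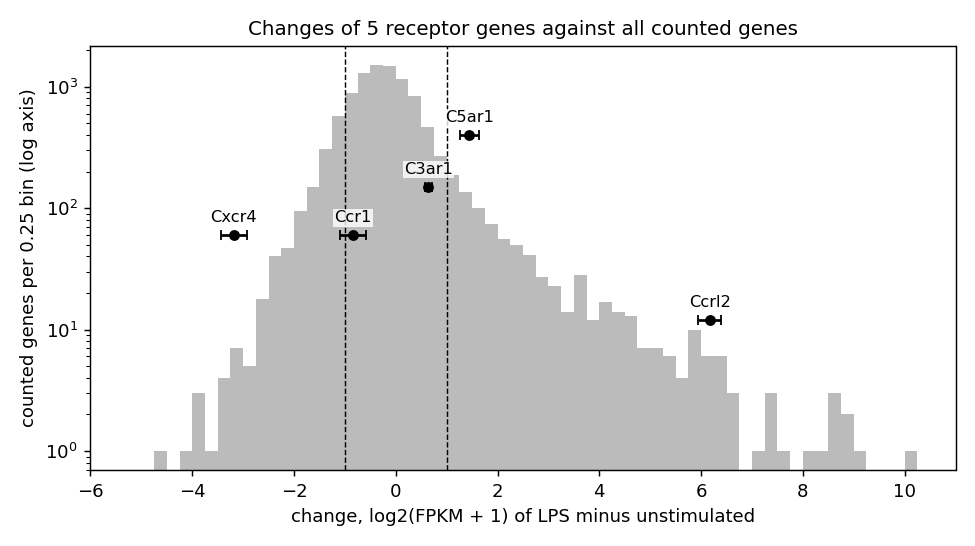
Changes of the 5 counted receptor genes (points, with the interval derived from both deposited intervals) over a histogram of the changes of all 10035 counted genes (grey, logarithmic vertical axis, bins of 0.25); the height of a point has no meaning and dashed lines mark the size rule of 1. Cxcr4 at -3.19 and Ccrl2 at 6.17 lie in the thin tails, while Ccr1 and C3ar1 lie inside the dashed lines.

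Ccrl2, the atypical receptor (RefSeq NM_017466, mm9 chromosome 9, 110957339 to 110959774), was at an FPKM of 0.836 (0.553 to 1.12) in the unstimulated library. After LPS it was at 131 (128 to 135). The 2 intervals lay far apart, and the values rested on 35 and 5776 implied fragments. The ratio was 157 (112 to 220) and the change 6.17. In rank of FPKM among counted genes it moved from place 9766 to place 725. Its ligand gene Rarres2, which encodes chemerin, was below 1 in both libraries, at 0.723 (0.212 to 1.23) and 0.258 (0 to 0.556), with overlapping intervals. Cmklr1, the signalling receptor for chemerin, was at 0.483 (0.300 to 0.665) and 0.427 (0.259 to 0.594), also overlapping. The rise of Ccrl2 was therefore not accompanied by a counted transcript level of Rarres2 or Cmklr1. Chemerin protein was not measured.

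Neighbouring genes on chromosome 9 did not share the rise of Ccrl2. Ltf, the lactoferrin gene, ends 12.1 kb before Ccrl2 and was at 0 FPKM unstimulated and 0.0171 (0 to 0.0512) after LPS. Lrrfip2, which begins 60.8 kb on the other side, had 7.56 (6.70 to 8.42) before and 13.7 (12.6 to 14.7) after, and its change of 0.78 was short of the size rule. These neighbours were taken by position.

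RefSeq lists 3 start sites for Ccrl2, and the deposited row does not say which was used in BV2 cells. The 250 bases before the most upstream of them (GRCm38.p6, chr9:111057519-111057768, minus strand) are printed because they hold a match to the motif of NF-kB, the transcription factor through which LPS acts on many genes. The motif was searched on both strands in its general form, named here only, since some of its letters vary. Capitals mark the match, 56 to 47 bases before the start, which reads as a match on both strands.
Ccrl2: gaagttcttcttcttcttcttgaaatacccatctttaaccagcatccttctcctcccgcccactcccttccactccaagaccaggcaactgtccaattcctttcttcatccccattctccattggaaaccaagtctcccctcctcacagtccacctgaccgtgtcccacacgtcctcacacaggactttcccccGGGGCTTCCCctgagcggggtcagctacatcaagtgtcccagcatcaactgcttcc
The same search found the motif in 7.25% of 32851 RefSeq windows of this length. The windows of the other 2 Ccrl2 start sites held no match to it or to the other motifs searched. Those were the interferon response element, by its name alone (2.98% of all windows), the AP-1 site TGANTCA (6.75%) and the PU.1 core GAGGAAGT (2.44%), each on both strands. A match is a string of letters and was not shown to be bound.

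Cxcr4, the receptor for the chemokine Cxcl12 that retains and positions leukocytes (NM_009911, mm9 chromosome 1, 130484776 to 130488876), was at an FPKM of 20.8 (19.3 to 22.4) in unstimulated cells. It was at 1.40 (1.01 to 1.79) after LPS, from 737 and 52 implied fragments. The intervals were separate, the ratio was 0.0672 (0.0504 to 0.0895) and the change -3.19. Cxcr4 was thus the second most abundant of the 9 before LPS and held 34.9% of their summed FPKM, against 0.707% after. Cxcl12 was listed at 0 in both libraries. Mif, a cytokine that also binds Cxcr4, was abundant in both, with 902 (880 to 923) before and 1132 (1108 to 1156) after LPS, and its change of 0.33 was within the size rule. The nearest genes by position did not pass the rule. Dars, an aminoacyl-tRNA synthetase gene, went from 96.4 (93.3 to 99.6) to 56.4 (53.9 to 58.9) with a change of -0.76, and Thsd7b was at 0.00753 and 0.

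The 250 bases before the Cxcr4 start (GRCm38.p6, chr1:128592300-128592549, minus strand) are printed beside those of Ccrl2 because the pair had the largest rise and fall of the 9. None of the 4 motifs searched is present in them, so no letter is capitalised.
Cxcr4: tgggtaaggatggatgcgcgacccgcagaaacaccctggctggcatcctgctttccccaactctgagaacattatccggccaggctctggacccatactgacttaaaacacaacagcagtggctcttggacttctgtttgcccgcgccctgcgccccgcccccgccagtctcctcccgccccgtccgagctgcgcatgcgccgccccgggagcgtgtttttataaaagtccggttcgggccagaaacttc
No match means only that these letters are not in this window. RefSeq windows were found for 8 of the 9 genes, all but Ccr7, and 3 of their 10 windows held any match. The 10 include 3 windows of Ccrl2, which partly overlap in position. Each motif alone was found in 2.44% to 7.25% of all 32851 windows. The share of those with any of the 4 was not computed, so the count does not set the receptors apart.

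Ccr1, a receptor for the inflammatory chemokines Ccl3 and Ccl5 (NM_009912, mm9 chromosome 9, 123876959 to 123883525), was low in unstimulated cells and lower after LPS. Its FPKM was 1.65 (1.31 to 1.98) and then 0.478 (0.301 to 0.656), from 95 and 29 implied fragments. The intervals were separate and the ratio was 0.291 (0.190 to 0.444), yet the change of -0.84 did not pass the rule because the pseudocount of 1 weighs heavily at this level. With a pseudocount of 0.1 the change was -1.59. After rescaling to TPM, in which the values of each library sum to a constant, Ccr1 also passed the rule as lower. Of its listed ligands, all but Ccl6 went the other way. Ccl3 rose from 527 (514 to 540) to 13123 (13061 to 13185) and Ccl5 from 9.05 (6.80 to 11.3) to 3827 (3782 to 3872). Ccl9 rose from 1.41 (1.11 to 1.72) to 49.0 (47.3 to 50.7). Ccl6, named as a Ccr1 ligand as well, fell from 15.8 (14.3 to 17.3) to 5.70 (4.80 to 6.59), a call lost with a pseudocount of 5.

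Ccr2, the receptor for Ccl2 (NM_009915, mm9 chromosome 9, 124016922 to 124023879), was close to the limit of detection. It was at 0.0807 (0.0148 to 0.147) and 0.0128 (0 to 0.0384), from 6 fragments and 1 fragment. The intervals overlapped, and the ratio of 0.159 had an exact counting interval of 0.00345 to 1.31. A difference was not detectable at this depth. The ligands of Ccr2 were abundant after LPS: Ccl2 rose from 45.8 (42.1 to 49.5) to 2897 (2868 to 2926), Ccl12 from 8.77 (6.58 to 10.97) to 199 (189 to 209), and Ccl7 from 3.75 (2.68 to 4.82) to 128 (122 to 134).

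Ccr7, which leads mature dendritic cells to lymph nodes (NM_007719, mm9 chromosome 11, 99005513 to 99016391), was listed at 0 in the unstimulated library. After LPS it was at 0.514 (0.290 to 0.738), from 21 implied fragments, which stayed under the count minimum. Because 1 library is at 0, no ratio is given. Its ligand Ccl19 was at 0 in both libraries. The dendritic cell markers given above did not all move with it. Xcr1 rose past the rule. Itgax went from 23.8 to 30.4 FPKM with separate intervals, and Zbtb46 from 0.905 to 1.34 with overlapping intervals, both within the rule. The transcription factor gene Batf3 fell from 27.9 to 11.1 FPKM. Flt3 was near 0, H2-Aa was at 0.0526 and 0, and Cd209a was at 0 in both libraries. Their part in the Ccr7 signal was not tested.

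Cx3cr1, the fractalkine receptor and a marker of microglia in the brain (NM_009987, mm9 chromosome 9, 119957811 to 119977400), was near 0 in this microglial line. The 2 values rest on 11 and 5 implied fragments, and their ratio of 0.433 had an exact counting interval of 0.118 to 1.35. Its ligand gene Cx3cl1 was at 0.0155 (0 to 0.0465) and 0.560 (0.379 to 0.742), with separate intervals but below 1 in both libraries.

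The 2 anaphylatoxin receptors were both present in unstimulated cells and higher after LPS. C5ar1, which senses the complement fragment C5a (mm9 chromosome 7, 16832092 to 16844889), went from 4.74 (4.12 to 5.35) to 14.6 (13.5 to 15.7). The intervals were separate, with a ratio of 3.08 (2.65 to 3.58) and a change of 1.44. A pair of transcripts, 2 rows, make up the gene in the deposited tables. NM_007577 carried nearly all of it, at 4.74 (4.12 to 5.35) and 13.8 (12.8 to 14.9), while NM_001173550 was near 0 in the unstimulated library and at 0.753 (0.423 to 1.08) after LPS. With a pseudocount of 5 the change of C5ar1 was 1.01, just past the rule. C5ar2, a decoy-like second receptor for C5a that lies 2.59 kb away, was at 0.508 (0.336 to 0.680) and 0.0941 (0.0183 to 0.170). Its intervals were separate in the direction opposite to C5ar1, below 1 FPKM in both libraries. The other flanking gene, Inafm1, was at 1.57 (1.13 to 2.01) and 1.06 (0.705 to 1.41). Hc, the gene of complement C5 itself, was at 0.00868 (0 to 0.0260) and 0.

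C3ar1, the receptor for C3a (NM_009779, mm9 chromosome 6, 122797158 to 122806175), was the most abundant of the 9 before LPS. It was at 31.4 (30.2 to 32.6) and then 49.4 (48.0 to 50.9), from 2827 and 4669 implied fragments. The intervals were separate, but the ratio of 1.57 (1.4996 to 1.65) gave a change of 0.64, which is short of the rule. The C3 gene, which encodes the precursor of its ligand, rose from 19.2 (18.3 to 20.02) to 169 (166 to 171), a ratio of 8.80. Ligand precursor and receptor were thus both expressed in these cells. The flanking genes Foxj2 (1.66 and 1.39 FPKM) and Necap1 (26.95 and 22.7 FPKM) were within the rule.

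The remaining motif matches lay before C3ar1 and Ccr1, and both windows are printed for comparison with Ccrl2, since these genes differ in level and direction. Capitals mark an AP-1 match 22 to 16 bases before the C3ar1 start (GRCm38.p6, chr6:122856158-122856407, minus strand) and an NF-kB match 74 to 65 bases before the Ccr1 start (GRCm38.p6, chr9:123968693-123968942, minus strand).
C3ar1: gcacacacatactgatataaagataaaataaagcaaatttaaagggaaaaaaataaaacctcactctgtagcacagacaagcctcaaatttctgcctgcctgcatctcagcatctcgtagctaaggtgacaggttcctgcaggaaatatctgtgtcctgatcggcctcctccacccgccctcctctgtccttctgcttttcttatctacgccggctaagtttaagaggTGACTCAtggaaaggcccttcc
Ccr1: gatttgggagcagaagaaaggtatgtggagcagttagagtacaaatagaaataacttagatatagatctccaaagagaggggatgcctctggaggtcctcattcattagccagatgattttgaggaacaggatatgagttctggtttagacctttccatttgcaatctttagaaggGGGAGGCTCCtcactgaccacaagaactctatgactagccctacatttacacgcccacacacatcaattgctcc
The NF-kB letters stood before Ccrl2, which rose 157-fold, and before Ccr1, which was lower after LPS. Their part in either change was not tested.

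Fpr2, the formyl peptide receptor that also binds annexin A1 and serum amyloid A (NM_008039, mm9 chromosome 17, 18024788 to 18030916), was listed at 0 in unstimulated cells. After LPS it was at 0.159 (0 to 0.318), from 4 implied fragments. Fpr1, its neighbour 3.89 kb away, showed the same pattern, at 0 and 0.155 (1e-06 to 0.310), also from 4 fragments. The formyl peptide receptor genes are a family of close paralogues, so fragments can be shared. Among the Fpr2 ligand genes 2 were abundant. Anxa1 was at 192 (186 to 197) and 233 (227 to 238), within the rule, and Saa3 rose from 12.4 (9.76 to 15.0) to 2204 (2170 to 2238). Camp, which encodes a cathelicidin peptide, was at 0 and 0.768 (0.187 to 1.35).

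The order of the receptor levels differed between the libraries. Before LPS it ran C3ar1, Cxcr4, C5ar1, Ccr1, Ccrl2, Cx3cr1, Ccr2, with Ccr7 and Fpr2 at 0. Neighbours in this order had separate intervals down to Ccrl2 and Cx3cr1, while the intervals of Cx3cr1 and Ccr2 overlapped. After LPS the order was Ccrl2, C3ar1, C5ar1, Cxcr4, Ccr7, Ccr1, Fpr2, Cx3cr1, Ccr2. The first 4 were separate from one another and from the rest, Ccr7 overlapped Ccr1, Ccr1 overlapped Fpr2, Fpr2 overlapped Cx3cr1 and Cx3cr1 overlapped Ccr2. The FPKM of the 9 genes summed to 59.7 and 198. C3ar1 made up 52.6% of the sum in the unstimulated library and 24.97% in the LPS library. Ccrl2 went from 1.40% to 66.3%. The share of C5ar1 was close in both, at 7.94% and 7.37%.

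**Figure D3:**
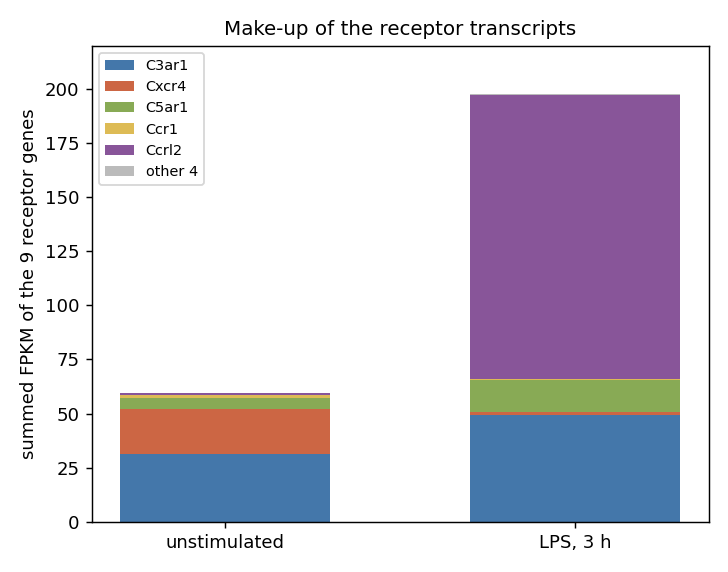
Summed FPKM of the 9 receptor genes in the unstimulated and the LPS library, each bar a single library split by gene. The sum is 59.7 without LPS, mostly C3ar1 and Cxcr4, and 198 with LPS, mostly Ccrl2.

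Most other receptors of these families were silent or nearly so in BV2 cells. Of 26 measured genes outside the 9, only 2 were counted, Xcr1 only through its LPS value. The other 24 stayed under 1 FPKM before and after LPS, 8 of them at 0 throughout. Xcr1, the lymphotactin receptor of cross-presenting dendritic cells, rose from 0.0536 (0.00565 to 0.101) to 1.40 (1.16 to 1.64), from 5 and 137 implied fragments, and was no longer called with a pseudocount of 5. Cxcr2, the main neutrophil chemokine receptor, had 1.89 (1.54 to 2.24) before and 0.504 (0.328 to 0.679) after, with separate intervals and a change of -0.94, short of the rule. The other counted neutrophil markers went different ways. S100a8 was at 4.11 (2.12 to 6.11) and 1.38 (0.254 to 2.51), from 17 and 6 implied fragments with overlapping intervals, and Csf3r was at 4.70 (4.18 to 5.22) and 6.95 (6.33 to 7.57). The part of neutrophil markers in the Cxcr2 value was not tested. The summed FPKM of the 26 receptor genes outside the 9 was 4.99 and 4.22, below the sums of the 9 in both libraries.

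Several receptor genes lie close together on mm9 chromosome 9, among them Ccr9, Cxcr6, Xcr1, Ccr1, Ccr1l1, Ccr3 and Ccr2 in this order. They did not move as 1 block. Xcr1 was called higher, and Cxcr6 was at 0.0270 (0 to 0.0809) and 0.282 (0.112 to 0.452), with separate intervals. Beyond the 106 kb gap after Xcr1, Ccr1 was lower after LPS, with the values given above. Ccr9, Ccr1l1, Ccr3 and Ccr2 had overlapping intervals. Cxcr6 lies inside the span of Fyco1 (0.857 and 0.710 FPKM), and no source used here says whether the counting used strand, so its value is uncertain. Ccrl2 is on the same chromosome, 12.7 Mb before Ccr9.

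Among the ligands of the 9 receptors, 8 of 11 counted genes rose and 1 fell, against 8.54% higher and 12.4% lower among all counted genes. Their median change was 4.37 and that of all counted genes -0.24. Another 6 of the 17 measured were below 1 FPKM in both libraries. All 11 counted ligand genes were above 1 FPKM already before LPS, the lowest being Ccl9 at 1.41. None of them was counted only through its rise. Earlier results of these data had shown chemokine genes rising, so their direction is no independent evidence. The largest changes were those of Ccl5 (8.57), a ligand of Ccr1, Saa3 (7.36), a ligand of Fpr2, and Ccl2 (5.95), a ligand of Ccr2, while Ccr1, Fpr2 and Ccr2 were themselves at or below 0.478 FPKM after LPS.

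**Figure D4:**
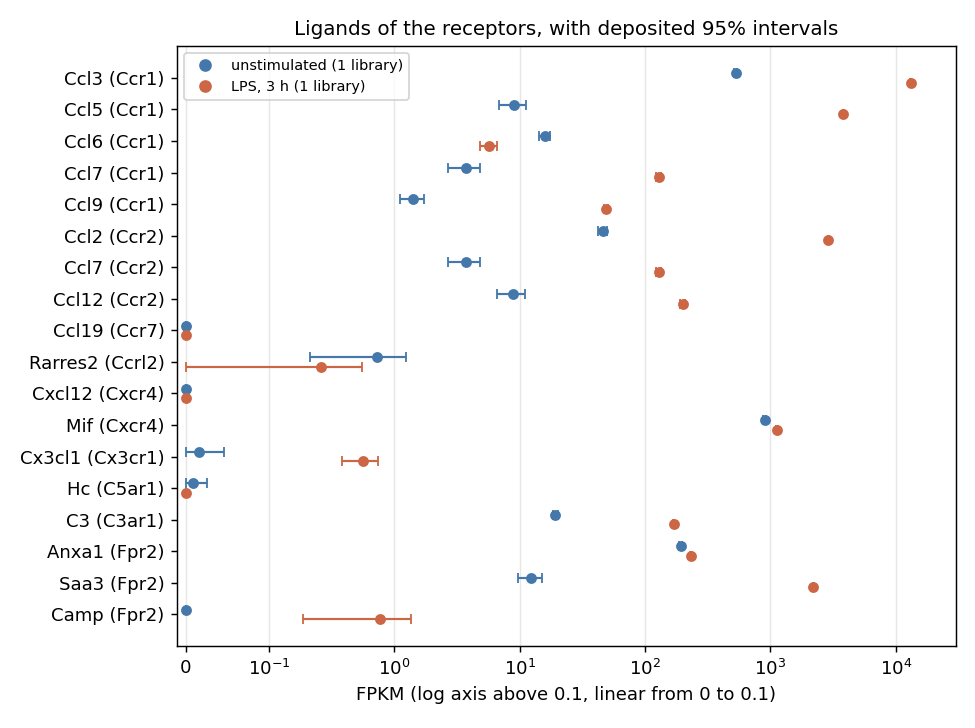
FPKM of the ligand genes, each followed by its receptor in brackets (horizontal axis, logarithmic above 0.1 and linear from 0 to 0.1), in the unstimulated (blue) and the LPS library (orange) with deposited 95% intervals; Ccl7 appears under both of its receptors. Ccl2, Ccl3, Ccl5 and Saa3 lie at 2204 or more after LPS, and Ccl19 and Cxcl12 are at 0 in both.

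Genes that carry or end the receptor signal mostly stayed within the rule. Of 31 counted genes, 3 rose, 6 fell and 22 did neither, and the median change was -0.17. That is 3 of 31 against a background of 8.54% higher and 6 of 31 against 12.4% lower. The 3 that rose were Pik3r5, Pik3r6 and Prex1, and Prex1 was no longer called with a pseudocount of 5 or after rescaling to TPM. Pik3r5, the regulatory subunit p101, went from 8.46 (7.85 to 9.07) to 42.7 (41.3 to 44.0), and its alternative Pik3r6 from 3.81 (3.33 to 4.29) to 17.9 (16.5 to 19.4). Prex1, a Rac exchange factor that G beta-gamma and phosphoinositides activate, went from 4.79 (4.41 to 5.16) to 11.1 (10.5 to 11.6). The catalytic subunit gene Pik3cg had 2.21 (1.93 to 2.499) before and 1.11 (0.895 to 1.32) after, and its change was -0.61.

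Among the genes that fell, Rgs2 and Rgs18 encode regulators that switch G proteins off. Rgs2 fell from 79.0 (76.7 to 81.2) to 16.7 (15.6 to 17.7), and Rgs18 from 2.97 (2.40 to 3.54) to 0.0524 (0 to 0.126). Arrb1, beta-arrestin 1, fell from 13.7 (12.9 to 14.5) to 2.46 (2.12 to 2.80), whereas Arrb2 was at 52.8 (50.3 to 55.4) and 42.7 (40.5 to 44.9), within the rule. Plcb2, a phospholipase C of blood cells, fell from 24.96 (24.0 to 25.9) to 5.46 (5.02 to 5.89). Gng2, a G gamma subunit, fell from 13.6 (12.7 to 14.5) to 5.58 (5.05 to 6.10), and Grk6, a receptor kinase, from 11.3 (10.3 to 12.2) to 4.81 (4.24 to 5.39). Gng2 and Grk6 were no longer called with a pseudocount of 5 or when the median change was set to 0, Grk6 also not after quantile normalisation, and Rgs18 not with a pseudocount of 5. Gnai2, the main inhibitory G alpha of leukocytes, was at 112 (109 to 115) and 140 (137 to 144), within the rule.

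**Figure D5:**
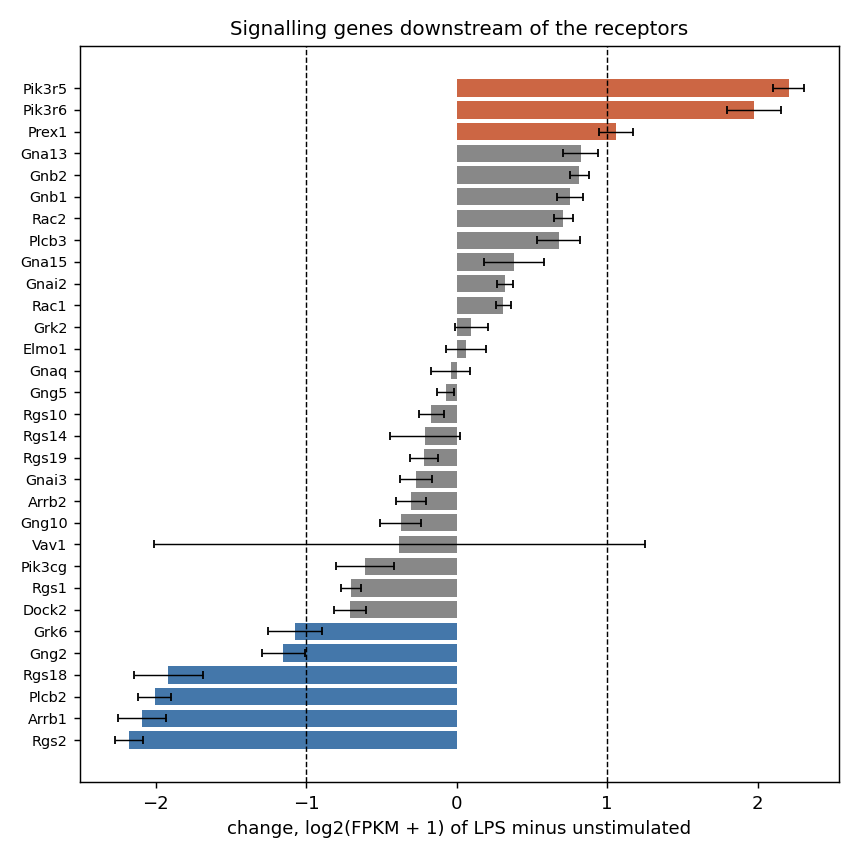
Change of the 31 counted signalling genes on the log2(FPKM + 1) scale, with the interval derived from both deposited intervals; orange bars were called higher, blue bars lower and grey bars neither, and dashed lines mark the rule. Pik3r5, Pik3r6 and Prex1 pass it upwards and 6 genes from Grk6 to Rgs2 pass it downwards.

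The genes most like Ccrl2 and Cxcr4 in their 2 values were found by Euclidean distance in log2(FPKM + 1) over the 2 libraries, which is a likeness of level and change in 2 points only. Nearest to Ccrl2 were AA467197 (1.04 and 124 FPKM, distance 0.18), Nos2, the inducible nitric oxide synthase gene (0.649 and 140, distance 0.18), and Lcn2, the lipocalin 2 gene (0.281 and 126, distance 0.52). Nearest to Cxcr4 were the kinase gene Tec (20.01 and 1.77 FPKM, distance 0.21), the uracil glycosylase gene Ung (16.2 and 1.48, distance 0.34) and the mitotic inhibitor gene Fbxo5 (15.3 and 1.41, distance 0.42).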

How the data were processed

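For each of the 2 BV2 RNA libraries the authors deposited, per the file headers, FPKM values with lower and upper bounds and an estimation status. Cufflinks and build mm9 are named in the submitters' processing notes; the Cufflinks version, the aligner and strand use in counting are not given there. Per the labels' protocols, a directional kit and 76-base reads were used. RefSeq (GRCm38.p6, for symbols and promoter windows alone) named 27556 of 28246 rows (97.6%). Rows not OK in both libraries (391) and another 710 of small RNAs were left out, and rows of a symbol were summed.

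The change was computed with a pseudocount of 1, which understates changes of low genes. Ratios use FPKM alone, with intervals from the deposited bounds, or exact Clopper-Pearson intervals on implied fragments for Ccr2, Cx3cr1 and Xcr1. Implied fragments are the square of 2 × FPKM over the distance from value to upper bound. They treat the whole distance as counting error, so they come out too low where fragment assignment widens the interval. Exact intervals on them cover counting error only. No p-value was computed. The script that makes the calls was checked on simulated data, which says nothing of any call made here. Loci are mm9, 1-based.

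The receptor genes, lists (related receptors, ligands, signalling genes, markers), motifs and the 9 alternatives were chosen with earlier results of these data known. By rule the text names the 9 receptors, list genes past the size rule or highest in their list, each receptor's ligands, and the 3 genes nearest in pattern to the largest rise and fall. Neighbours by position and other genes without a call were added after their values were seen. Protein sequences were not used here. Python 3.11.15, pandas 2.3.3, numpy 2.4.6 and scipy 1.17.1 were used.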

Additional observations from a re-analysis of the deposited data

How the results depend on the processing

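Across the 9 alternatives Ccrl2 was called higher in all 9 (change 4.55 to 7.13), C5ar1 in all 9 (1.01 to 1.68), and Cxcr4 was called lower in all 9 (-3.80 to -2.01). C3ar1 was within the rule in all 9 (0.40 to 0.87). Ccr1 (-1.59 to -0.28) made the number of receptor genes called lower 2 with a pseudocount of 0.1 and 2 after TPM, against 1. Related receptors called lower numbered 1 with a pseudocount of 0.1 and 1 after TPM (Cxcr2), against 0, and those called higher 0 with a pseudocount of 5 and 0 with a filter at 5 FPKM, against 1. With median scaling, signalling genes called higher numbered 5, against 3. With a pseudocount of 5, ligands called lower numbered 0 against 1, and signalling genes called lower 3 (Arrb1, Plcb2 and Rgs2) against 6. Of 72 such counts, 63 stayed within 1.5 times. Scaling moved the median change of all counted genes by -0.24 (TPM), 0.24 (median scaling) and 0.11 (quantile), and the share of higher among all calls from 40.7% to 24.8%, 61.3% and 53.0%; a pseudocount of 5 gave 61.9%, with 354 genes lower against 1248. With a pseudocount of 0.1, 2061 genes were lower, and after TPM 2280. Median scaling left 699 lower. The cause of these shifts was not tested. No replicate could be left out and no paired analysis was possible because each group has 1 library. At under 10 implied fragments in a library, as for Ccr2, Cx3cr1 and Fpr2, depth sets the limit.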
